A study of Homo sapiens with 21 samples.

Results

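The genes described here encode 3 families of enzymes that attach a water-soluble group to drugs, hormones and plant compounds. They were chosen by name: protein-coding rows of the deposited count table whose symbol begins with UGT1A, UGT2, UGT3, SULT, GST or MGST, without GSTCD. The rule found 54 genes among the 58735 of the table, of which 19951 code for protein: 21 UGT, 13 SULT, 17 cytosolic or mitochondrial GST and 3 MGST genes. The cells, labelled HepG2 (a line from a human liver tumour), were kept for 24 h in serum-free DMEM, a culture medium, that held coumarin, a plant benzopyrone, at 0, 0.001, 0.01, 0.1, 1, 10 or 100 µM. The 0 µM group received the same change to serum-free medium, per the labels. Each of the 7 groups had 3 libraries of poly(A)-selected RNA, 21 in all, which the labels call biological replicates.

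UDP-glucuronosyltransferases (UGT) sit in the endoplasmic reticulum and transfer glucuronic acid from UDP-glucuronic acid. Sulfotransferases (SULT) are cytosolic and transfer sulfate from the activated donor PAPS, and phenols such as hydroxylated coumarins are substrates of both families. Glutathione transferases (GST) and their membrane-bound counterparts (MGST) join glutathione to electrophiles, and liver is rich in many of these enzymes.

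Gene counts totalled 26984563 to 43375429 per library, and for a gene with no count the limit is 3 counts. In the library of lowest total this is 0.111 CPM before scaling. CPM relates a count to its library's total, and the CPM values of genes below use totals multiplied by the TMM factor. In all, 16699 genes held enough counts to be tested. Hepatocyte markers were near the floor in these cells, which goes against the label HepG2. Of 10 such markers 0 reached a mean of 1 CPM, their sum was 0 to 0.311 CPM per library, and ALB, TTR, APOC3 and FGB were listed at 0 throughout. The 4 ductal epithelial markers summed to 657 to 806 CPM, and 1 of the 4 reached 1 CPM. Control replicates 2 and 3 stood apart from the other libraries: their TMM scaling factors were 1.04 and 1.043 against 0.972 to 1.018 in the other 19. The total behind their deposited FPKM exceeded their gene counts by 8.03% and 8.17%, against 1.04% to 5.43% elsewhere. Results are therefore also given with control replicate 1 as the sole control, where that library is assumed to vary like the other groups, which supply the spread, and with the 12 libraries of the lowest doses (0.001 to 1 µM) as reference. Among markers of other cell types, the summed level of the 6 mesenchymal genes was 1590 to 1670 CPM in control and 1380 to 1430 CPM at 100 µM (4 of 6 reached 1 CPM; PDGFRA was listed at 0). Its part in the results at 100 µM was not tested. In bulk RNA, fewer cells of a type and less RNA per cell cannot be told apart.

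Transcripts of the family were dominated by a few glutathione transferases, and glucuronosyltransferases were listed close to the floor. Of the 54 genes, 18 were tested: 11 of 17 GST, 3 of 3 MGST, 3 of 13 SULT and 1 of 21 UGT genes. Levels between genes are compared as deposited FPKM (fragments scaled to gene length and library size). The length is that of all annotated exons of a gene together. Exon bases that a cell does not transcribe lower the FPKM, so the order of genes below holds for this measure only. By mean CPM, which ignores length, GSTM3 had 165 against 77 for GSTO1, and MGST3 had 60 against 11.4 for GSTT2B. GSTP1, the pi-class transferase, was the most abundant at a mean of 248 FPKM (228 to 266 over the 21 libraries). GSTO1, an omega-class enzyme that also reduces dehydroascorbate, followed at 43.8 FPKM (41.1 to 48.3). GSTM3, a mu-class enzyme, had 33.4 FPKM (30.4 to 37.4). The ranges of these 3 genes did not overlap one another.

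The next level was held by MGST1, a microsomal transferase and peroxidase, at 14.6 FPKM (13.4 to 16.2). GSTK1, the kappa-class enzyme of mitochondria and peroxisomes, had 11.0 FPKM (9.85 to 12), and the theta-class gene GSTT2B had 10.0 FPKM (7.90 to 12.6). The ranges of GSTK1 and GSTT2B overlapped, so their order is within the spread. MGST3, which has glutathione peroxidase activity, and GSTM1 also overlapped, at 6.87 FPKM (6.35 to 7.22) and 6.60 FPKM (5.69 to 7.53). MGST2, which can form leukotriene C4, had 4.64 FPKM (3.99 to 5.08) and SULT1A1, the main phenol sulfotransferase, had 4.31 FPKM (3.35 to 4.91), again with overlapping ranges.

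Below these came GSTZ1, the maleylacetoacetate isomerase of tyrosine breakdown, at 2.73 FPKM (2.48 to 2.99), GSTO2 at 2.57 FPKM (2.25 to 2.78) and GSTM4 at 2.39 FPKM (1.95 to 2.66). SULT1A2, a close relative of SULT1A1, had 1.24 FPKM (0.805 to 1.78). GSTA4, the alpha-class enzyme that clears 4-hydroxynonenal, had 1.21 FPKM (0.939 to 1.46). Neighbours among these 5 genes overlapped, except for GSTM4 and SULT1A2. The other 3 tested genes had under 1 FPKM: SULT1A3 at 0.130, the UDP-N-acetylglucosamine-using UGT3A1 at 0.0515 and GSTM2 at 0.0497 FPKM. Within the summed FPKM of the 20 GST and MGST genes, GSTP1 held 62.0% to 65.1%, GSTO1 10.6% to 12.1% and GSTM3 7.63% to 9.55% of each library. Within the summed FPKM of the 13 SULT genes, SULT1A1 held 70.0% to 78.3% and SULT1A2 16.0% to 25.7%. Shares of FPKM depend on the gene lengths used, such as 8909 bases for SULT1A1 and 2275 for SULT1A2. The mean CPM of these 2 genes were 39.9 and 2.93.

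**Figure D1:**
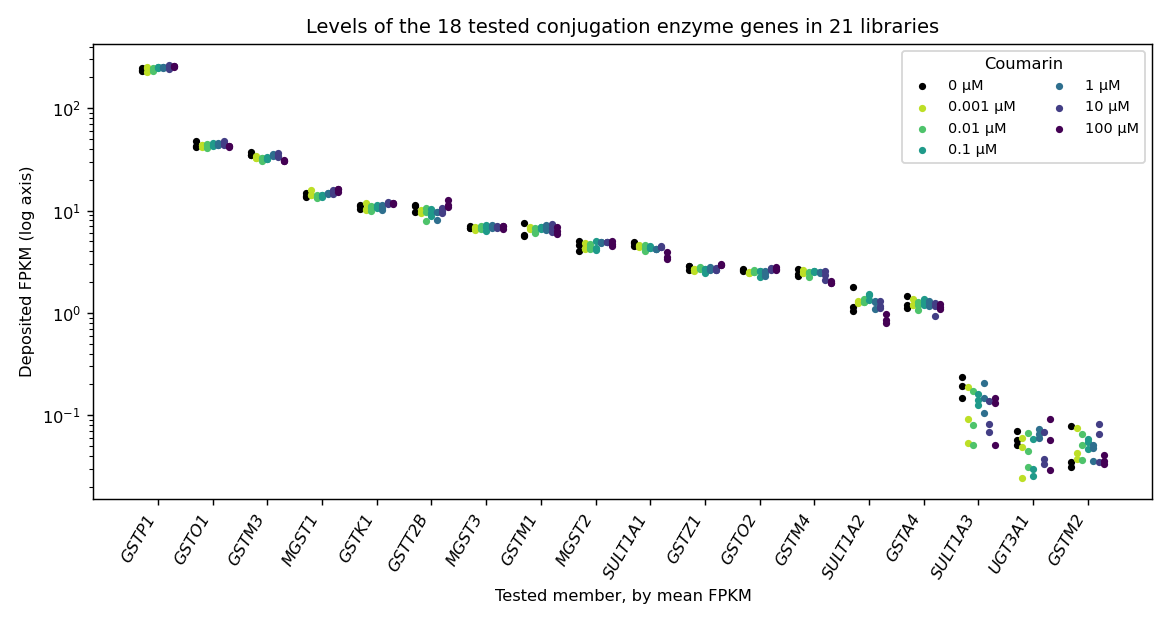
Deposited FPKM (log axis) of the 18 tested genes in each of the 21 libraries, ordered by mean and coloured by coumarin dose. GSTP1 lies at 228 to 266 FPKM in every library, and SULT1A3, UGT3A1 and GSTM2 lie below 1 FPKM.

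The 36 untested genes had at most 14 counts in a library. For 13 of them the table lists 0 in all 21 libraries: UGT1A3, UGT1A4, UGT2A2, UGT2A3, UGT2B4, UGT2B10, UGT2B11, UGT2B15, UGT2B28, SULT1C3, GSTA1, GSTA2 and GSTA5. GSTA1 and GSTA2 are the alpha-class transferases for which liver is known, and UGT2B4, UGT2B10 and UGT2B15 are hepatic glucuronosyltransferases. Of the other 23, SULT2B1, a cholesterol sulfotransferase, had 2 to 14 counts and the estrogen sulfotransferase SULT1E1 had 0 to 12. UGT1A6, a glucuronosyltransferase of simple phenols, had 0 to 1 counts, UGT1A1, the bilirubin transferase, 0 to 1, and UGT1A8 0 to 5. The 21 UGT genes summed to 0.0467 to 0.129 FPKM per library.

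The 9 UGT1A genes share their last exons. In GENCODE release 29, whose coordinates matched the table for all 54 genes, 40.6% to 80.0% of their exonic bases lie in an exon of another gene on the same strand. The summed counts of the 9 UGT1A genes were 0 to 6 per library. Whether reads in the shared exons are among these counts is not given in the sources used here. EEF1G, an elongation factor gene that every cell uses, is listed at 0 in all libraries, and 99.9% of its exonic bases lie in exons of AP002990.1. AP002990.1 itself had 153 to 339 counts per library. A value of 0, or a low sum such as that of UGT1A, therefore says only what is listed. What the counting of shared exons added to such values was not tested. Among the 13 genes listed at 0, the same-strand exon share was 93.2% for UGT2A2, 80.0% for UGT1A3 and 63.9% for UGT1A4. It was 0.0% for the rest of the 13. SULT1A4 had 0 to 1 counts, and 95.3% of its 100-base windows occur in transcripts of other genes, mainly its copy SULT1A3. For SULT1A3 that share was 80.4%, for GSTT2B 78.5% (its copy GSTT2, listed as a polymorphic pseudogene, had 17 to 45 counts), and for GSTM1 29.1%. It was 12.9% for GSTM2, 6.5% for GSTM4, 5.9% for SULT1A1 (its pseudogene copy AC020765.3 had 5 to 22 counts), 4.5% for SULT1A2 and 0% for GSTP1, GSTM3, GSTO1, GSTK1, MGST1, MGST2, MGST3, GSTZ1, GSTO2, GSTA4 and UGT3A1. Values of SULT1A3, GSTT2B, GSTM1 and GSTM2 are uncertain for this reason. Opposite-strand exons cover 16.0% of the exonic bases of GSTM1, 7.9% of MGST2 and 4.3% of GSTM3. The counter's strand setting is not given in the sources used here.

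Promoter sequence is shown for the most abundant member and for 2 genes of the mu-class cluster on chromosome 1 that were lower at 100 µM. Each run is the 250 bases before the RefSeq transcription start (GRCh38.p14), read 5′ to 3′ on the gene's strand. GSTP1 lies at chr11:67583562-67583811 on the plus strand, GSTM3 at chr1:109741039-109741288 on the minus strand and GSTM4 at chr1:109655849-109656098 on the plus strand. Capitals mark TGACNNNGC, the core of the antioxidant response element bound by NRF2, and GCGTG, the core of the dioxin response element bound by AHR, each searched on both strands.
GSTP1: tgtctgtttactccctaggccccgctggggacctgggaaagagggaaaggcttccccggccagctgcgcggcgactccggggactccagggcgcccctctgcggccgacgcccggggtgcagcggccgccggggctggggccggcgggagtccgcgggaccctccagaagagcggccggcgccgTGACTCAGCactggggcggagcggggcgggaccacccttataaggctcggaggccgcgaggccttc
GSTM3: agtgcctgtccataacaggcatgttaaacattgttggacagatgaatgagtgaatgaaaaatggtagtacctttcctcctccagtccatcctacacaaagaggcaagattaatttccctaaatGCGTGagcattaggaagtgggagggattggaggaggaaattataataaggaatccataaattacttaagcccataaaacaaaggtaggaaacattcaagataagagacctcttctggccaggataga
GSTM4: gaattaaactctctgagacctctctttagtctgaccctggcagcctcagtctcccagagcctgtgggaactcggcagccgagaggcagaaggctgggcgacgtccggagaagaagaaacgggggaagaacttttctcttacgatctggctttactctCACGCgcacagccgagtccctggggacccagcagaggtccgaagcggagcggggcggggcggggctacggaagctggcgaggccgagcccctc
The GSTP1 run holds TGACTCAGC starting 66 bases before the start site, the GSTM3 run holds GCGTG starting 127 bases before it, and the GSTM4 run holds GCGTG on the opposite strand 93 bases before it. RefSeq windows were found for 14 of the 18 tested genes (18 windows), not for GSTT2B, MGST2, SULT1A1 or SULT1A2. TGACNNNGC was in 4 of the 18 windows (GSTP1, GSTO1, GSTM1 and GSTA4), against 10.9% of 35116 windows of all genes. GCGTG was in 5 of the 18 (GSTM3, GSTM4, MGST3, GSTO2 and GSTZ1), against 32.2% of all windows. These are letter matches, with no measurement of binding.

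At 100 µM the sulfotransferase SULT1A1 and the mu-class transferases GSTM3 and GSTM4 were lower than in control, in every alternative tried. Of the 18 tested genes 6 were called (quasi-likelihood test of edgeR, p adjusted by Benjamini and Hochberg and under 0.05), against 27.3% of all genes tested. In the upward direction 2 were called (14.4% of all genes) and in the downward direction 4 (12.9% of all genes). The median log2 change of the 18 was -0.028, beside -0.008 over all genes, and their median absolute change was 0.110, beside 0.151. A fold of 2 or more was reached by 0 of 18, against 2.68% of all genes, and the largest log2 change of a called member was 0.59 in size. Libraries of the 2 groups did not overlap for 8 of 18 genes, against 40.8% of all genes. The count called and the non-overlapping count are near the share over all genes.

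SULT1A1 (ENSG00000196502, GRCh38 chromosome 16, 28605196 to 28623625, minus strand) sulfates small phenols. Its libraries held 45.6, 42.2 and 45.1 CPM in control and 32.7, 36.3 and 31.1 CPM at 100 µM. All 3 treated libraries lay below all 3 controls. The mean went from 44.3 ± 1.86 to 33.4 ± 2.64 CPM (SD, n = 3), 1.33-fold lower (log2 change -0.41, SE 0.054, edgeR adjusted p = 1.3e-07). Against control replicate 1 alone the log2 change was -0.45, and against the 12 low-dose libraries (37.4 to 42.8 CPM) it was -0.27 (edgeR adjusted p = 4.83e-06). At the lower doses the libraries of SULT1A1 lay between 37.4 and 42.8 CPM, below the mean of control in every one. They did not overlap control at 0.1, 1 and 10 µM, at log2 changes of -0.13, -0.18 and -0.11, and these did not pass the test (edgeR adjusted p = 0.131, 0.0625 and 0.294).

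SULT1A2 (ENSG00000197165, chromosome 16, 28591943 to 28597109, minus strand), on the same chromosome arm as SULT1A1, had 2.67, 2.47 and 4.23 CPM in control and 2.30, 1.90 and 2.04 CPM at 100 µM. Control replicate 3 was high, and the groups did not overlap. The fitted difference was 1.5-fold (log2 change -0.59, SE 0.164, edgeR adjusted p = 0.00597). Without control replicate 3 it was -0.31 and did not pass (edgeR adjusted p = 0.198), nor did it against control replicate 1 alone (-0.36, adjusted p = 0.273). Against the 12 low-dose libraries, which held 2.56 to 3.64 CPM, it was -0.58 (edgeR adjusted p = 0.000716). SULT1A3, a catecholamine sulfotransferase, had 4 to 19 counts per library. It was at 0.635, 0.395 and 0.516 CPM in control and 0.349, 0.136 and 0.392 CPM at 100 µM (log2 change -0.78, edgeR adjusted p = 0.186). Summed over the 4 SULT1A genes, the level was 48.1 ± 2.64 CPM in control and 35.7 ± 2.42 CPM at 100 µM (SD, n = 3; log2 change -0.43, edgeR adjusted p = 1.83e-08). The summed FPKM of the 13 SULT genes was 5.78 to 6.93 in control, 5.56 to 6.22 at 0.001 to 10 µM and 4.58 to 5.02 at 100 µM, so the highest dose did not overlap any other group.

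GSTM3 (ENSG00000134202, chromosome 1, 109733932 to 109741038, minus strand) was lower at low doses as well. Its libraries held 185, 175 and 174 CPM in control and 155, 150 and 150 CPM at 100 µM, with no overlap. It was 1.17-fold lower (log2 change -0.23, SE 0.040, edgeR adjusted p = 2.58e-05), and -0.28 against control replicate 1 alone. At 0.001 µM the libraries held 160, 168 and 161 CPM, at 0.01 µM 153, 159 and 162 CPM, and at 0.1 µM 158, 156 and 165 CPM. All 9 lay below the 3 controls. GSTM3 fell at 0.01 µM (log2 change -0.17, edgeR adjusted p = 0.00559) and at 0.1 µM (-0.15, edgeR adjusted p = 0.0143). The call at 0.1 µM was lost without control replicate 1, without replicate 1 or 2 at 0.1 µM, and at an adjusted p under 0.01. At 0.001 µM its log2 change was -0.13 (edgeR adjusted p = 0.108). At 1 µM it held 171, 167 and 175 CPM and at 10 µM 181, 166 and 169 CPM, which overlapped control. Over the treated libraries it had no slope on dose that passed the test (log2 change of -0.002 per 10-fold dose, edgeR adjusted p = 0.911). Against the 12 low-dose libraries, 100 µM was lower (log2 change -0.10, edgeR adjusted p = 0.0243).

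GSTM4 (ENSG00000168765, chromosome 1, 109656081 to 109674836, plus strand) had 15.9, 14.5 and 13.8 CPM in control and 11.6, 11.6 and 12.1 CPM at 100 µM. The groups did not overlap, and GSTM4 fell by 0.32 on the log2 scale (SE 0.074, edgeR adjusted p = 0.00102). Against control replicate 1 alone the log2 change was -0.43. The 15 libraries at 0.001 to 10 µM held 12.6 to 15.8 CPM, so all 3 libraries at 100 µM lay below every other library. GSTM1, another mu-class gene of the cluster, held 19.7, 15.2 and 14.9 CPM in control and 15.4, 17.8 and 16.5 CPM at 100 µM (log2 change -0.002, SE 0.082, edgeR adjusted p = 0.992). GSTM2 had 9 to 34 counts per library and a log2 change of -0.38 (SE 0.399, edgeR adjusted p = 0.525). The sum of the 5 GSTM genes, to which GSTM3 gave the most counts, went from 211 ± 9.19 to 181 ± 1.28 CPM (SD, n = 3; log2 change -0.22, edgeR adjusted p = 2.85e-05).

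The 2 members called upward were MGST1 and GSTP1, at 1.11-fold and 1.08-fold. MGST1 (ENSG00000008394, chromosome 12, 16347142 to 16609259, plus strand) held 116, 109 and 105 CPM in control and 117, 125 and 125 CPM at 100 µM. The lowest treated library lay just above the highest control. The log2 change was 0.16 (SE 0.046, edgeR adjusted p = 0.00927). The call was lost without control replicate 3 (0.12, adjusted p = 0.0816), without replicate 2 or 3 at 100 µM, and against control replicate 1 alone (0.08, edgeR adjusted p = 0.473). Against the 12 low-dose libraries it was 0.15 (edgeR adjusted p = 0.00287).

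GSTP1 (ENSG00000084207, chromosome 11, 67583595 to 67586656, plus strand) held 494, 461 and 468 CPM in control and 512, 515 and 508 CPM at 100 µM. The groups did not overlap, and the log2 change was 0.11 (SE 0.041, edgeR adjusted p = 0.0423). At the doses between, its libraries ranged from 453 to 528 CPM, which covers both groups. The call was lost in 12 of 18 alternatives, among them control replicate 1 alone (log2 change 0.05, edgeR adjusted p = 0.632), upper-quartile scaling (0.08) and the omission of any of 5 single libraries (control replicate 2 or 3, or any at 100 µM). Against the 12 low-dose libraries it was 0.07 (edgeR adjusted p = 0.139).

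**Figure D2:**
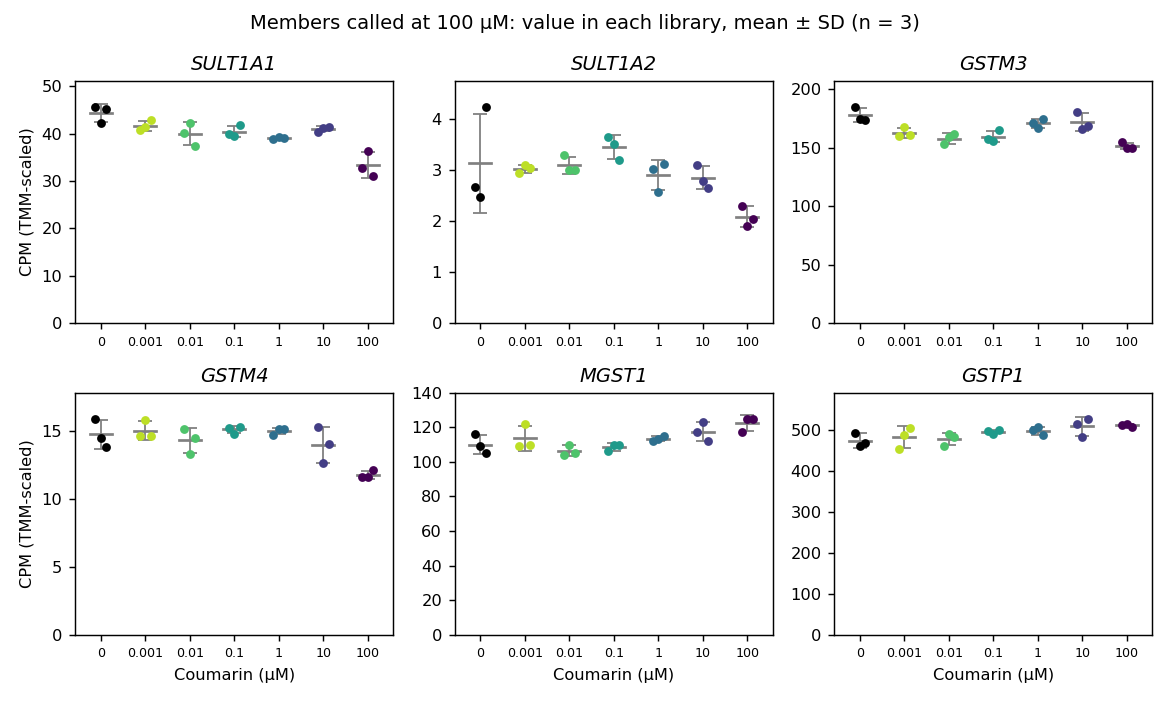
CPM (TMM-scaled, linear axes from 0) of the 6 members called at 100 µM, by coumarin dose: points are libraries, grey lines are the mean ± SD of 3. SULT1A1 and GSTM4 are lowest at 100 µM, GSTM3 is also low at 0.001 to 0.1 µM, and MGST1 and GSTP1 vary within a narrow range.

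The other 12 tested genes were not called at 100 µM. GSTO1 held 85.1, 76.1 and 73.1 CPM in control and 75.4, 74.3 and 74.5 CPM at 100 µM, which overlap (log2 change -0.06, SE 0.047, edgeR adjusted p = 0.350). Control replicate 1 was the highest of its 21 libraries. The log2 change was -0.19 against that library alone and 0.002 without it. GSTK1 lay above control in all 3 libraries at 100 µM (50.5 to 51.8 against 45.8 to 49.3 CPM), but did not pass the test (log2 change 0.10, edgeR adjusted p = 0.186). GSTT2B had 0.11 (adjusted p = 0.401), GSTZ1 0.08 (0.345), MGST2 0.05 (0.693), GSTO2 0.04 (0.678) and MGST3 -0.002 (0.980), all edgeR adjusted p. GSTA4 had -0.14 on the log2 scale (SE 0.146, edgeR adjusted p = 0.527). UGT3A1, on 6 to 26 counts per library, had -0.05 (SE 0.386, edgeR adjusted p = 0.943), so neither a rise nor a fall was detectable at this depth.

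With the 12 libraries at 0.001 to 1 µM as reference, which do not include the controls, more members passed at 100 µM. They were 9 of 18, against 31.7% of all genes: 5 upward (15.6% of all genes) and 4 downward (16.0% of all genes). The 4 downward were SULT1A1, SULT1A2, GSTM3 and GSTM4. Upward were MGST1, GSTT2B, GSTZ1, GSTK1 and GSTO2. GSTT2B held 12.4, 14.3 and 12.9 CPM at 100 µM against 9.05 to 12.1 CPM in the 12 libraries (log2 change 0.29, edgeR adjusted p = 0.00113), while its control libraries held 12.6, 11.1 and 13.0 CPM. GSTZ1 was higher by 0.14 (edgeR adjusted p = 0.0129), and its control libraries, at 23.1 to 25.6 CPM, lay within or just above the low-dose range of 21.9 to 24.9 CPM. GSTK1 and GSTO2 were each higher by 0.12 (edgeR adjusted p = 0.0217 and 0.0378).

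Below 100 µM 1 member, GSTM3, was called, at 0.01 and 0.1 µM. There it was 1 of 18 at each dose, against 5.86% and 6.45% of all genes. At 0.001, 1 and 10 µM edgeR called 0 of 18, against 1.53%, 2.01% and 2.62% of all genes. At an unadjusted p under 0.05, edgeR gave 1, 2 and 4 members at these doses. The share of all genes at that unadjusted threshold was not computed, so no result about the members is read from these counts. DESeq2 called 1, 1 and 0 members, with 455, 550 and 602 genes called in all. With limma on the deposited FPKM, 0 members were called at each. At 10 µM GSTK1 lay above and SULT1A1 and SULT1A3 lay below all 3 controls, 3 of 18 genes, against 17.5% of all genes without overlap.

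Over the 18 treated libraries, 5 of the 18 members had a slope on log10 dose that passed the test, against 21.5% of all genes. In 2 the slope was upward (10.0% of all genes) and in 3 downward (11.5% of all genes). SULT1A2 fell by 0.092, GSTM4 by 0.053 and SULT1A1 by 0.044 on the log2 scale per 10-fold dose (edgeR adjusted p = 0.0168, 0.0101 and 0.00910). GSTK1 and MGST1 rose by 0.029 and 0.027 (edgeR adjusted p = 0.0339 and 0.0283). Without the 100 µM group 0 of 18 passed, and the count was 1, 2 and 0 without replicate 1, 2 and 3 at 100 µM. Calls over all genes in these reduced fits are not given here.

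**Figure D3:**
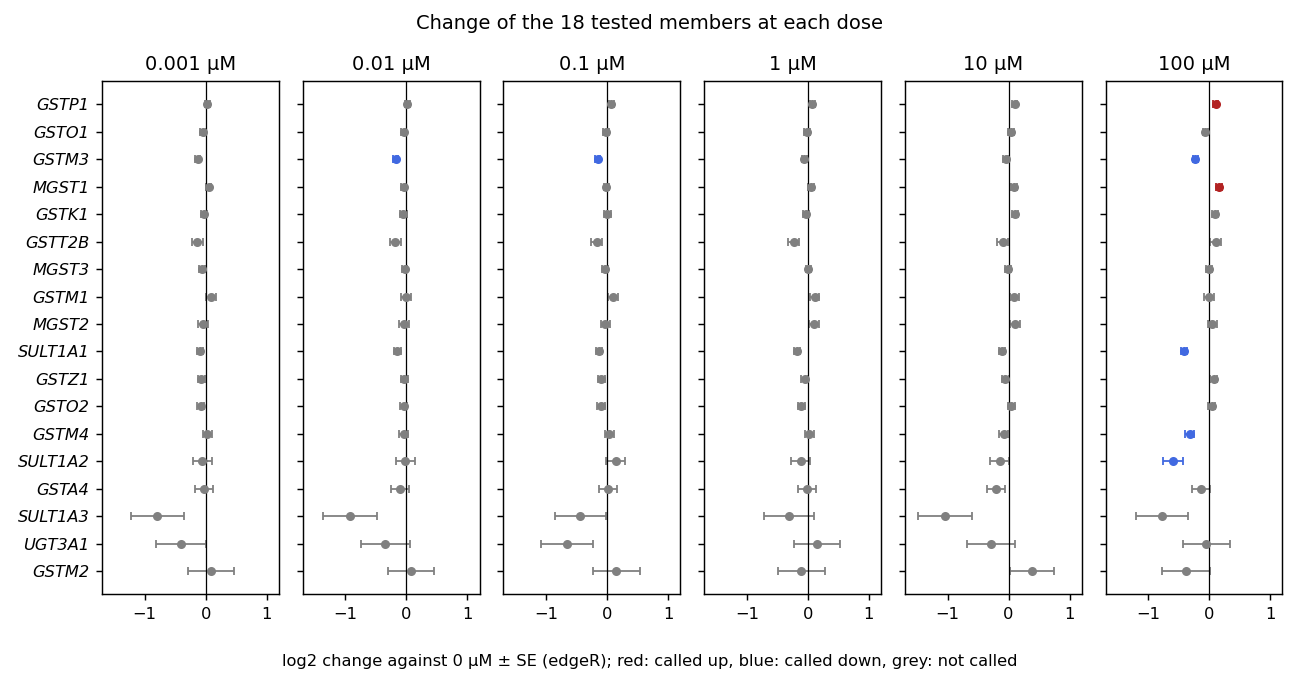
Log2 change of the 18 tested members against 0 µM at each of 6 doses, with SE bars (edgeR). Red marks upward and blue downward calls: GSTM3 is called at 0.01, 0.1 and 100 µM, and the other 5 called members at 100 µM. All doses share the 3 control libraries.

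Some genes of sulfate transport and of the making and turnover of its donor PAPS fell at 100 µM. Of 11 listed genes 10 were tested, and 4 fell and 0 rose, against 12.9% and 14.4% of all genes, with a median log2 change of -0.112 (all genes -0.008). This list and those below were chosen with earlier results of these data known, so their counts beside all genes are no test of a list. SLC26A2, a sulfate transporter of the plasma membrane, went from 94.5 ± 2.66 to 62.4 ± 1.90 CPM (SD, n = 3; log2 change -0.60, edgeR adjusted p = 9.12e-14). SLC26A1, another sulfate transporter, fell by 1.03 from 1.32 ± 0.236 CPM (edgeR adjusted p = 0.00287), a call lost against control replicate 1 alone. PAPSS1, which makes PAPS, fell by 0.25 (edgeR adjusted p = 6.54e-06), and BPNT1, which degrades the spent donor, fell by 0.27 (edgeR adjusted p = 0.000136). PAPSS2, the other PAPS synthase, named after its value was seen, had -0.05 (edgeR adjusted p = 0.471). The uncalled genes of highest level were the phosphatase IMPAD1 at -0.04 and the PAPS transporter SLC35B2 at -0.05.

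For glucuronidation, 1 of the 7 genes around UDP-glucuronic acid fell (12.9% of all genes did) and 0 rose, with a median of 0.08. It was UGP2, which makes UDP-glucose, from 127 ± 8.93 to 106 ± 4.07 CPM (SD, n = 3; log2 change -0.26, edgeR adjusted p = 0.000323). UGDH, which oxidises UDP-glucose to the glucuronyl donor, had 0.11 (edgeR adjusted p = 0.0507) and PGM1 0.08. UGDH had a mean of 19.6 FPKM over the 21 libraries.

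The list of glutathione synthesis and breakdown held the largest single change among the listed genes, that of CHAC1. Of 23 listed genes 18 were tested, 9 rose and 2 fell, beside 14.4% and 12.9% of all genes, with a median log2 change of 0.146. CHAC1, which degrades glutathione, rose 8.02-fold. SLC3A2 and SLC7A11, the subunits of the cystine importer, rose by 0.58 and 0.45 on the log2 scale (edgeR adjusted p = 2.83e-14 and 3.1e-07). CTH, which makes cysteine from cystathionine, rose by 0.54 (edgeR adjusted p = 3.41e-13). GGT5, an extracellular enzyme that cleaves glutathione conjugates, fell by 0.91 (edgeR adjusted p = 4e-07). The synthesis enzymes, named here after their values were seen, had smaller values: GCLM, the modifier subunit of glutamate-cysteine ligase, rose by 0.17, the synthetase GSS by 0.17 and the reductase GSR by 0.12, while the catalytic subunit GCLC had -0.02 (edgeR adjusted p = 0.0118, 0.00565, 0.0303 and 0.708). Against control replicate 1 alone the calls of GCLM, GSS and GSR were lost. Over 18 alternatives GCLM lost its call in 4, GSS in 3 and GSR in 8, with 0.04 for GSR and 0.09 for GSS against the low-dose libraries. Without control replicate 2 the values of GCLM, GSS and GSR were 0.13, 0.13 and 0.07, all uncalled. The aminopeptidase LAP3, which was not called, had 0.11.

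Of 8 transporters that export conjugates, 2 fell and 0 rose at 100 µM (median -0.003), a share called near the 27.3% of all genes. ABCC3, which exports glucuronides across the basolateral membrane, went from 50.6 ± 1.05 to 31.3 ± 0.965 CPM (SD, n = 3; log2 change -0.69, edgeR adjusted p = 1.03e-14). It also fell at 10 µM, by 0.34 (edgeR adjusted p = 2.85e-05). ABCG2, which exports sulfates, fell by 0.32 (edgeR adjusted p = 0.0293), a call lost in 9 of 18 alternatives. ABCC2 had -0.03 and ABCC1, an exporter of glutathione conjugates, 0.02, though ABCC1 was lower by -0.19 against the 12 low-dose libraries. Of 5 tested enzymes that remove conjugates 1 rose (14.4% of all genes did), the glucuronidase GUSB (0.13, edgeR adjusted p = 0.0499), a call lost in 16 of 18 alternatives. ARSB and STS had log2 changes of 0.03 and 0.10.

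A further list held relatives of the members whose symbols the naming rule does not take. Of 12 listed genes 9 were tested, 6 rose (14.4% of all genes did) and 1 fell (12.9%), with a median log2 change of 0.233. Among the 6 that rose, CLIC1 and UGT8, named here for this limit, lost their calls in 11 and 6 of 18 alternatives. CLIC4, a protein with a transferase-like fold, rose by 0.47 (edgeR adjusted p = 5.44e-12). VARS, a tRNA synthetase with such a domain, rose by 0.36, and GDAP1 by 0.31. Against the 12 low-dose libraries the values of CLIC4, VARS and GDAP1 were 0.40, 0.16 and 0.28, all called. GDAP1 also rose at 10 µM, by 0.20 (edgeR adjusted p = 0.0261). PTGES2 rose by 0.23 (0.10 and uncalled against control replicate 1 alone), and PTGES, a prostaglandin synthase of the MGST1 family, fell by 0.34 (edgeR adjusted p = 1.57e-05). GSTCD and LTC4S had -0.09 and 0.23, both uncalled. Among 13 genes of other conjugation and hydrolysis 7 were tested, 2 rose and 1 fell, where all genes had 14.4% and 12.9%. The epoxide hydrolase EPHX1 rose by 0.32, and the nicotinamide methyltransferase NNMT fell by 0.17 (-0.11 without control replicate 1, edgeR adjusted p = 0.0616), while CES2 and TPMT had 0.05 and 0.09.

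Of 21 regulators of these enzymes 15 were tested, 2 rose and 3 fell (median -0.119), a share called near the 27.3% of all genes. The AHR repressor AHRR fell by 0.73, the vitamin D receptor VDR by 0.47 and the small MAF protein MAFF by 0.45. AHRR also fell at 10 µM, by 0.18 (edgeR adjusted p = 0.0145). MAFG and MAFK, relatives of MAFF that pair with NRF2, rose by 0.21 and 0.16 (edgeR adjusted p = 0.000495 and 0.0200), and MAFK lost its call in 8 of 18 alternatives. NFE2L2, which encodes NRF2, had -0.12 (edgeR adjusted p = 0.0625) and its inhibitor KEAP1 had -0.04. HNF4A, a liver factor that drives UGT genes, and the xenobiotic receptor NR1I2 were not tested for want of counts.

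**Figure D4:**
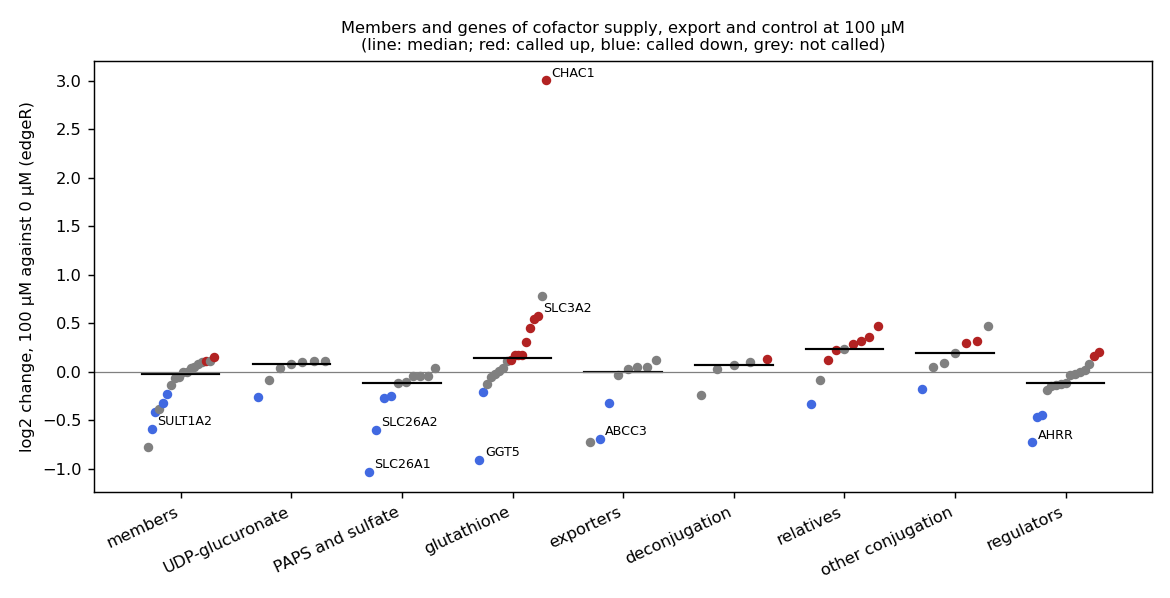
Log2 change at 100 µM against 0 µM (edgeR) of the 18 tested members and of the tested genes of 8 lists, with the median of each as a line. Red and blue points passed the test upward and downward. CHAC1, at 3.00, is the highest point, SLC26A1, at -1.03, is the lowest, and the members lie between -0.78 and 0.16.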

How the data were processed

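Gene counts and FPKM were deposited by the authors for 21 libraries. Per the submitters' processing notes, HISAT2, GRCh38 and DESeq2 were used; for the counter, its strand setting and software versions: not given in the sources used here. FPKM were used as deposited, to compare levels between genes. All genes with enough counts (edgeR filterByExpr, 16699 genes) were fitted in edgeR 4.0.16 (R 4.3.3) with TMM scaling and the quasi-likelihood test, 1 coefficient per dose (14 residual degrees of freedom), and p-values were adjusted over all of them (Benjamini-Hochberg, threshold 0.05). The SE is the log2 change divided by the root of the F statistic. A second fit used log10 dose over the 18 treated libraries. Members and lists were chosen with earlier results of these data known. Every tested member is named. Values per library are given for members called against control or with a mean of at least 20 FPKM, and each list is represented by up to 5 called genes of smallest p and up to 2 uncalled genes of highest CPM, except for a few list genes that are not reported here.

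Alternatives were other scalings and filters, DESeq2 1.42.0, limma 3.58.1 on log2(FPKM + 1) and log2(FPKM + 0.1) (FPKM of at least 0.1 in 3 libraries), a 0.01 threshold, a replicate block, other references and the omission of each library. On simulated counts for 100 against 0 µM (16699 genes), the test recovered 62%, 72%, 74% and 96% of genes changed 1.25-, 1.5-, 2- and 4-fold, with 8 false calls. Only 50 genes, of any level, were changed at each fold, whereas 4558 were called in the data. These rates therefore check the procedure and do not give its power in the data. Libraries within a group differed beyond counting noise. The labels say biological replicates without naming separate cultures, so p-values measure the spread between these libraries. Counting floors cover counting error only. Motifs were searched in RefSeq promoter windows (GRCh38.p14) with Python 3.11.15.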

Additional observations from a re-analysis of the deposited data

How the results depend on the processing

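At 100 µM SULT1A1, GSTM3 and GSTM4 kept their direction and call in all 18 alternatives run for each, with log2 changes of -0.48 to -0.27, -0.28 to -0.10 and -0.43 to -0.22. GSTP1 lost its call in 12, MGST1 in 4 and SULT1A2 in 2. Members called at 100 µM numbered 3 to 6 when single libraries were left out. The 3 were without control replicate 3, where 3516 of 16990 genes were called. Against control replicate 1 alone the set of members that stood out also differed. GSTO1, not called against all controls, was lower there (log2 change -0.19), while GSTP1, MGST1 and SULT1A2 lost their calls. With upper-quartile scaling 1, 2 and 1 members were called at 0.001, 0.01 and 1 µM, beside 198, 837 and 213 of all 16699 genes. At 1 µM a filter of 1 CPM (323 of 13819 genes called), a fit of only the 2 groups (278 of 15812) and DESeq2 each gave 1 member. DESeq2 also gave 1 at 0.001 µM. It called 455 and 550 genes in all at 0.001 and 1 µM, against 256 and 335 with edgeR. At 0.1 µM the count was 0 to 1 over single omissions (0 without control replicate 1, or replicate 1 or 2 at 0.1 µM) and 0 at an adjusted p under 0.01. For the slope it was 0 to 7 over single omissions, 1 at an adjusted p under 0.01 and 0 without the 100 µM group. Calls over all genes in these slope settings are not given here, so these counts have no background beside them. The cause of these shifts was not tested. With the replicate number as a block, 5 members were called at 100 µM (GSTP1 was lost, edgeR adjusted p = 0.0514) and 5 had a slope. Correlations between libraries were also taken after the mean of each group was subtracted from each gene's log2 CPM. For libraries of the same number in different groups these were -0.139 to 0.127 (median 0), and for other numbers the median was 0.001. No pairing by number was seen in this measure. UGT3A1, GSTM2 and SULT1A3, at 4 to 34 counts per library, are limited by depth.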
